A study of Mus musculus with 12 samples.

Results

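Primordial germ cell-like cells (PGCLCs) matured in aggregates with cells of the gonad were set against germ cells taken from the embryonic ovary. The comparison used the 4 of 12 expression arrays in the series whose sample codes begin with PGCLCd3ag6 or PGC12F, which gives 2 arrays in each group. The d3ag6 cells came from embryonic stem cells of C57BL/6 background that carry the BVSC transgenes (Blimp1-mVenus and stella-ECFP). They were induced to PGCLCs for 3 days and then kept for 6 days in aggregates with somatic cells of female E12.5 gonads. The E12.5 primordial germ cells (PGCs) came from female embryos at embryonic day 12.5, sired by C57BL/6 males with a stella-EGFP reporter on BDF1 females without one. Both groups are female, were sorted by reporter fluorescence, and gave cDNA amplified from 5 ng of RNA, equal to 500 cells. Strain, reporter and origin of the cells all change together between the groups, so that their parts in any difference cannot be told apart. The labels call the arrays biological replicates without saying whether cultures or litters were separate. The p-values below measure only the spread between arrays of the same group, pooled over all 12 arrays and not these 4 alone. The other 8 arrays held d3 PGCLCs, female and male d6 PGCLCs, and E9.5 PGCs, and served to estimate the spread and as a reference for levels. In male d6 and E9.5 the 2 arrays of a group carry different codes, so that this difference enters the spread. The d3 and d6 PGCLCs share the strain and transgenes of d3ag6, and the E9.5 PGCs share the cross and reporter of the E12.5 PGCs, though their sex is not labelled and their arrays carry other codes.

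PGCs are the founders of the germ line. In the mouse they are set aside in the epiblast by BMP signals, migrate to the genital ridges and erase most of their DNA methylation. In the fetal ovary they then begin meiosis, a switch in which retinoic acid, BMP signals and the factors Stra8, Meioc and Zglp1 take part. The aggregate replaces the embryonic gonad around cells that were made in culture, and the E12.5 ovary holds PGCs at about the entry into meiosis.

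Values are log2 signals per probe set after quantile normalization between arrays, and each gene is represented by its brightest probe set. Differences are d3ag6 minus E12.5 on the log2 scale, and a gene is called higher or lower where limma gave an adjusted p under 0.05. Of 13436 genes tested, 1213 were called (9.03%), 800 of them higher in d3ag6 (5.95%) and 413 lower (3.07%). The median difference over all genes was 0.003. At the other end, the 95% interval of the difference lay wholly inside 2-fold for 8132 genes (60.5%), which is a bound on the difference and not only a missed threshold. Both arrays of one group lay above both of the other for 8354 genes (62.2%), among them all 1213 called genes. The 2 d3ag6 arrays correlated at r = 0.984 across genes, the 2 E12.5 arrays at r = 0.990, and arrays of different groups at r = 0.947 to 0.959. Leaving out 1 array left 573 calls without d3ag6 replicate 1, 417 without d3ag6 replicate 2, 363 without E12.5 replicate 1 and 388 without E12.5 replicate 2. A total of 276 calls (22.8%) were made in all 4 of these fits. Below, a call lost when 1 array is left out is marked beside the gene. Counts of a list's calls with an array left out need not be of the same genes.

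**Figure D1:**
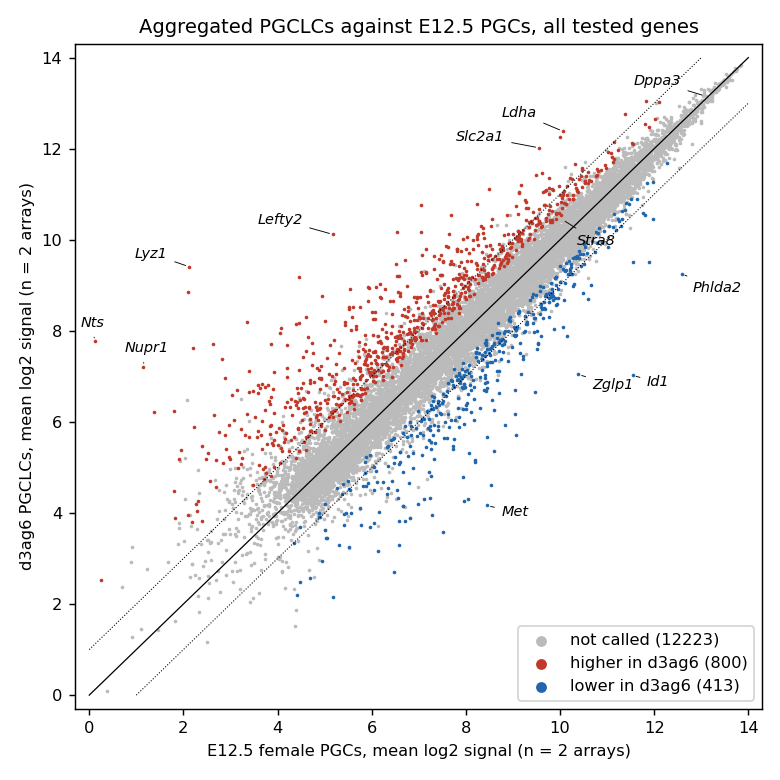
Mean log2 signal of each of 13436 tested genes in E12.5 PGCs (horizontal axis, n = 2 arrays) and d3ag6 PGCLCs (vertical axis, n = 2 arrays), with equality as a solid line and 2-fold differences as dotted lines. The 800 genes called higher in d3ag6 are red, the 413 called lower are blue, and Dppa3 (difference 0.06) lies on the line of equality.

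Several core factors of germ cell identity and pluripotency stood at nearly the same level in both groups. Of 18 tested markers of gonadal germ cells, 3 (Mael, Slc25a31 and Tex101) were called lower and none higher (16.7%, beside 9.03% of all genes). These 3 calls were lost whichever array was left out. The list had a median of -0.16. Its summed linear signal was 58043 and 55339 in d3ag6 against 64880 and 65407 in E12.5. Dppa3 (stella), a maternal-effect gene whose reporters were used in sorting both groups, had 13.15 and 13.16 in d3ag6 against 13.08 and 13.10 in E12.5, a difference of 0.06 (95% interval -0.25 to 0.38). Pou5f1, the core pluripotency factor, had 12.56 and 12.60 against 12.34 and 12.38, a difference of 0.22 (-0.13 to 0.57). Sox2, its partner on DNA, differed by -0.01 (-0.33 to 0.32), and its arrays interleaved between the groups. The AP-2 factor Tfap2c differed by 0.06 (-0.26 to 0.38, with other probe sets down to -0.85), the zinc finger protein Sall4 by -0.12 (-0.65 to 0.41) and the RNA-binding Dnd1 by -0.17 (-0.64 to 0.30). Prdm1 (Blimp1), the repressor that sets PGC fate and the basis of the other PGCLC reporter, differed by 0.56 (-0.05 to 1.16, adjusted p = 0.262). These intervals lie inside 2-fold, save that of Prdm1, whose upper end lies just outside. The intervals reached past 2-fold for Nanog (-0.31, interval -1.39 to 0.76) and for the receptor Kit (-0.15, interval -1.18 to 0.87).

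Of 23 tested genes of PGC specification, 2 were called higher and 1 lower, with a median of 0.15 and 14 intervals inside 2-fold. The gene called lower was Fut4, which makes the carbohydrate antigen SSEA1 of early germ cells. It had 4.67 and 4.97 in d3ag6 and 7.20 and 7.31 in E12.5, with all E12.5 values above all d3ag6 values, and was 5.41-fold lower (adjusted p = 0.000613). The interferon-induced membrane protein Ifitm3 was 1.89-fold higher (adjusted p = 0.00725), a call lost without E12.5 replicate 2 (adjusted p = 0.0712) and without d3ag6 replicate 1 (0.0562). Its neighbour Ifitm1 differed by 0.16, with an interval of -0.18 to 0.50. The second gene called higher, the BMP transducer Smad1, had a difference of 1.10 that passed in none of the fits with an array left out (adjusted p 0.0815 to 0.168). The list held 1 call without E12.5 replicate 2 or d3ag6 replicate 1, and 2 without either other array.

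Genes of meiotic entry did not behave as one group. Stra8, the retinoic acid target that gates entry, had 10.24 and 10.66 in d3ag6 against 10.16 and 9.92 in E12.5, a difference of 0.41 (95% interval -0.41 to 1.22, adjusted p = 0.58). For reference its mean level was 4.28 in d3 and 3.65 in female d6 PGCLCs, so both groups compared here lay well above the PGCLCs in culture. Sycp3, a protein of the meiotic chromosome axis, had 10.53 and 10.50 against 9.83 and 9.72, a difference of 0.74 that missed the threshold (adjusted p = 0.11). The cohesin subunit Rec8 differed by -0.32 (-0.79 to 0.16), within 2-fold.

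Against these, 7 of the 21 tested genes of the retinoic acid response and meiotic entry were called lower and none higher (33.3% called, beside 9.03% of all genes), with a median of -0.49. Zglp1, a GATA-like factor that acts downstream of BMP in the switch to oogenesis, had 6.92 and 7.17 in d3ag6 and 10.39 on both E12.5 arrays. The d3ag6 values lay between the 5.72 of d3 or 5.85 of d6 PGCLCs and the E12.5 level, and the difference was -3.35, or 10.2-fold lower (95% interval -4.01 to -2.68, adjusted p = 0.000407). The members Id4, Msx1 and Msx2 are also targets of BMP signals and are described with that pathway. Meioc, which holds germ cells in meiotic prophase, had 5.14 and 5.98 against 7.29 and 7.25 and was called 3.27-fold lower (adjusted p = 0.0167), a call that stood only without d3ag6 replicate 2 (adjusted p 0.0241, otherwise 0.0933 to 0.107). The blood and germ cell factor Gata2 (-0.96) and the retinol dehydrogenase Rdh10 (-0.90) complete the list, and both passed only with d3ag6 replicate 1 left out (adjusted p 0.0333 and 0.0152, and otherwise 0.0599 to 0.0693 and 0.0786 to 0.2). Without d3ag6 replicate 1, d3ag6 replicate 2, E12.5 replicate 1 or E12.5 replicate 2, the list held 6, 4, 3 and 4 calls.

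Of 17 tested genes of the synaptonemal complex and axis, 2 were called lower (11.8%, near the 9.03% of all genes) and none higher, and the median difference was -0.36. For 12 genes both d3ag6 arrays lay below both E12.5 arrays, as they did for 29.8% of all genes. Sycp1, the transverse filament that zips homologous chromosomes together, had 6.30 and 6.69 in d3ag6, 8.35 and 8.74 in E12.5, and a mean of 4.24 in female d6 PGCLCs. It was 4.16-fold lower (adjusted p = 0.00979), and the call was lost without E12.5 replicate 2 (0.079) and without d3ag6 replicate 1 (0.0655). The other call, the telomere attachment gene Terb2 (-0.81), passed in no fit with an array left out (adjusted p 0.104 to 0.228). Tex12 (-0.98, adjusted p = 0.0609), a central element protein, and Hormad1 (-1.43, adjusted p = 0.0619), an axis protein, did not pass, while the central element gene Syce2 differed by -0.06 with an interval of -0.40 to 0.28. The list held 0 calls without E12.5 replicate 2 or d3ag6 replicate 1 and 1 without either other array.

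Of 16 tested recombination genes 1, Meiob, was called higher and 1, Tex15, lower (12.5%, beside 9.03% of all genes). The call of Tex15 was kept whichever array was left out. Meiob, a single-strand DNA-binding protein of meiotic recombination, had 7.35 and 7.75 in d3ag6 and 4.66 and 4.56 in E12.5, and lay at 4.05 in d3 and 3.45 in d6 PGCLCs. It exceeded 4.81, the level of the filter, on the d3ag6 arrays only, so that it was tested only through the group in which it is high. It could thus only come out higher, and no weight rests on its call. It was 7.67-fold higher in d3ag6 (adjusted p = 0.00315), with both d3ag6 arrays above the means of all other groups. Tex15, a large protein needed for meiotic repair and for transposon silencing, had 8.90 and 9.12 against 10.60 and 10.70 and was 3.12-fold lower (adjusted p = 0.000773). Spo11, which makes the double-strand breaks, was not called (-0.68, adjusted p = 0.056), nor was the strand exchange protein Dmc1 (-0.45, adjusted p = 0.278).

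Genes that gonadal PGCs switch on as their promoters lose DNA methylation were more often called lower than higher. Of 25 tested genes of this list, 7 were called lower and 1 higher (32.0%), with a median of -0.64. Of 18 tested piRNA pathway genes, which silence transposons in the germ line, 3 were called lower and none higher (16.7%), with a median of -0.69. Asz1, a mitochondrial scaffold of the pathway, had 8.66 and 8.75 in d3ag6 against 10.50 and 10.68 in E12.5 and 6.87 in female d6 cells. It was 3.69-fold lower (adjusted p = 0.00746), a call lost without E12.5 replicate 2 (0.062), and its second probe set differed by 0.06. Mael, another pathway protein, had 10.47 and 10.46 against 11.98 and 11.97 and was 2.85-fold lower, yet passed in no fit with an array left out (adjusted p 0.102 to 0.129). Ddx4, the germ cell RNA helicase, had 11.55 and 11.59 against 12.51 and 12.55, a difference of -0.96 that missed the threshold (95% interval -1.62 to -0.31, adjusted p = 0.0758). The groups do not overlap for Ddx4, as they do not for 62.2% of all genes. Both groups lie above the 9.06 of female d6 PGCLCs. Dazl, which controls translation in germ cells, had 12.61 and 12.52 in d3ag6 against 12.96 and 13.04 in E12.5. Its difference was -0.43, with a wide interval of -1.80 to 0.94, and its other probe set differed by -1.5. The spread behind this interval was estimated over all groups and was widest between the E9.5 arrays, at 5.92 and 3.81. The glycerol-phosphate acyltransferase Gpat2 and the transposon repressor Morc1 differed by -0.03 and 0.02, with intervals inside 2-fold. Without 1 array, the promoter-methylated list held 1 call (without E12.5 replicate 2), 2 (d3ag6 replicate 1) or 3 (either other array), and the piRNA list 0 without E12.5 replicate 2 and 1 otherwise.

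Of the 19 tested early oocyte genes only Pou6f1 was called (higher, 2.69-fold, adjusted p = 0.0102, and 0.0871 without E12.5 replicate 2, 0.0731 without d3ag6 replicate 2 and 0.0529 without d3ag6 replicate 1). Figla, the oocyte factor that drives the zona pellucida genes, had 6.64 and 7.0 against 6.57 and 6.68, and Sohlh2, an early oocyte transcription factor, had 11.27 and 11.50 against 11.77 and 11.82. Neither passed the test, and the 1 call made up 5.26% of the list, beside 9.03% of all genes.

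Targets of BMP and the feedback genes of Nodal differed in opposite directions. BMP ligands activate Smad1 and Smad5 and switch on the Id and Msx genes, while Nodal, with its co-receptor Tdgf1, switches on its own antagonists Lefty1 and Lefty2. Of 23 tested genes of both pathways, 7 were called higher and 7 lower (60.9% called). The 7 lower genes were all BMP targets, namely Id1, Id2, Id3, Id4, Msx1, Msx2 and the pseudoreceptor Bambi. Without d3ag6 replicate 1 there were 8 calls, and without each of the other 3 arrays there were 7.

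Id1, an inhibitor of basic helix-loop-helix factors, had 6.61 and 7.43 in d3ag6 and 11.41 and 11.67 in E12.5. It was 23-fold lower in d3ag6 (difference -4.52, 95% interval -5.17 to -3.88, adjusted p = 9.54e-05), the largest fall among called genes with an established symbol. Its mean was 10.92 in d3 PGCLCs, 8.91 in female d6 PGCLCs and 10.63 in E9.5 PGCs, so d3ag6 held the lowest of these 5 levels. Id3 had 10.56 and 10.52 against 11.78 and 11.84 and was 2.41-fold lower (adjusted p = 0.000924). Id4 had 6.72 and 6.59 against 9.52 and 9.40 and was 6.98-fold lower (adjusted p = 0.000613). The homeobox gene Msx1 had 6.61 and 6.81 against 9.05 on both E12.5 arrays and was 5.07-fold lower (adjusted p = 0.000327). These 4 kept their calls whichever array was left out. Msx2 was 3.55-fold lower (adjusted p = 0.0068) but stood at 0.0581 without E12.5 replicate 1 and 0.0597 without d3ag6 replicate 2. Bambi (-1.09) passed only without d3ag6 replicate 2 (adjusted p 0.0468, otherwise 0.0898 to 0.0956). Id2 (-2.79) passed in no such fit (0.108 to 0.232). The inhibitory Smad6 and Smad7, also known BMP targets, differed by -0.20 and 0.23, each within 2-fold by its interval. The receptor Bmpr1a differed by -0.20 and was not called.

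On the Nodal side, Lefty2 had 10.06 and 10.18 in d3ag6 and 4.95 and 5.40 in E12.5, 30.7-fold higher (95% interval of the difference 4.29 to 5.59, adjusted p = 9.54e-05). Lefty1 had 10.45 and 11.07 against 7.15 and 6.94 and was 13.1-fold higher (adjusted p = 9.92e-05). Both calls held without each array, and the d3ag6 levels lay close to those of female d6 PGCLCs, at 10.40 for Lefty2 and 10.38 for Lefty1. Tdgf1 had 9.31 and 9.61 against 6.57 and 6.48 (7.64-fold higher, adjusted p = 0.0124), but its adjusted p was 0.0547 to 0.0874 with an array left out. Nodal itself had 8.67 and 8.10 against 6.67 and 5.96, a difference of 2.07 that was not called (95% interval 0.61 to 3.54, adjusted p = 0.0858). The other genes called higher were Smad1, Smad3, Bmp7 and Bmpr2, at differences of 0.63 to 1.32. Of these only Bmp7 passed with any array left out, without E12.5 replicate 1 (adjusted p = 0.0483) and d3ag6 replicate 1 (0.0312), and other probe sets of Bmpr2, Smad3 and Bmp7 had differences below 0. Lefty1, Lefty2 and Tdgf1 are expressed by pluripotent cells as well and are also counted in that list.

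**Figure D2:**
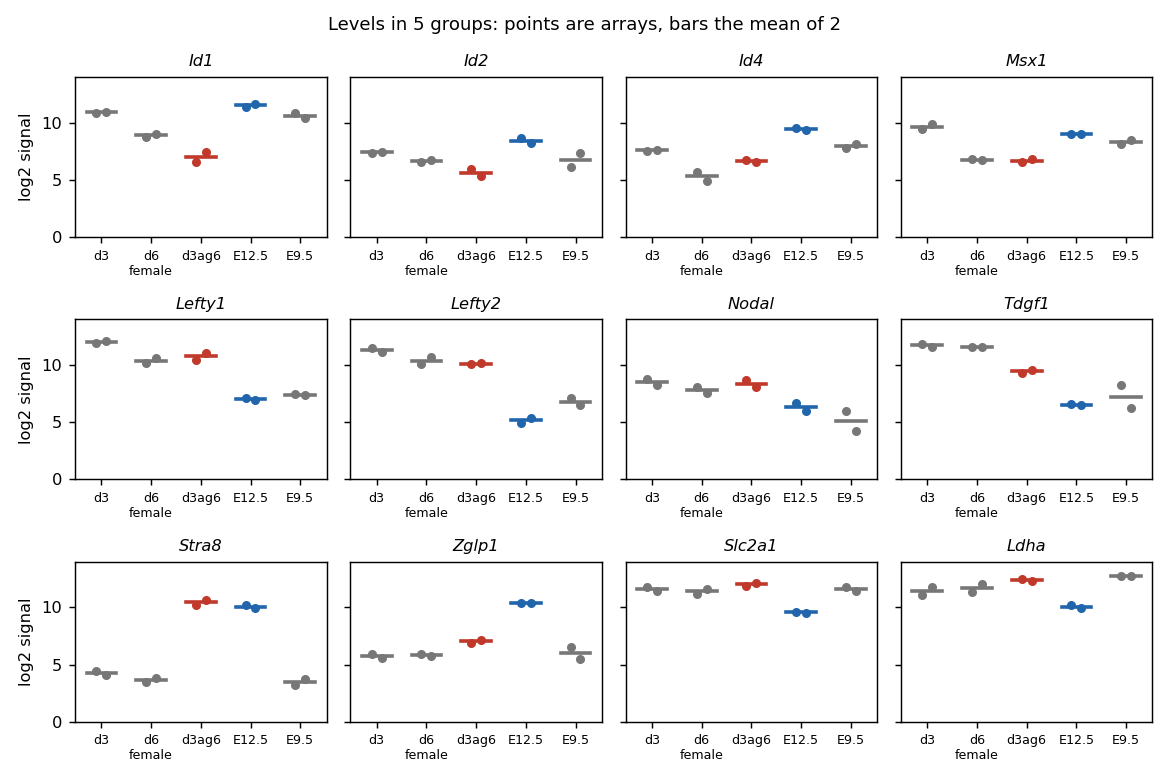
Log2 signal of 12 genes in d3 PGCLCs, female d6 PGCLCs, d3ag6 PGCLCs (red), E12.5 PGCs (blue) and E9.5 PGCs, with points for single arrays and bars for the mean of 2. Id1 averaged 7.02 in d3ag6 and 11.54 in E12.5, Lefty2 averaged 10.12 and 5.18, and Stra8 lay above 9.9 on all 4 arrays of both groups.

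Among genes of naive and core pluripotency 7 of 29 tested were called higher and 2 lower (31.0%), with a median of 0.23. Beyond the Lefty genes and Tdgf1, the genes called higher were Tfcp2l1, Zfp42, Klf2 and Esrrb, at 1.51-fold to 2.55-fold. Tfcp2l1, a transcription factor of naive stem cells, had 9.44 and 9.71 against 8.46 and 8.63 (adjusted p = 0.00767, and 0.0754 without E12.5 replicate 1 and 0.0694 without d3ag6 replicate 2). Zfp42 (Rex1), a stem cell marker, had 11.72 and 11.63 against 10.34 and 10.30, with adjusted p of 0.0134 and of 0.0751 to 0.0881 with an array left out. Esrrb and Klf2 also passed in no such fit. The gene called lower with the larger change was the homeobox gene Gbx2, at 3.97 and 4.55 in d3ag6 against 7.81 and 8.10 in E12.5, 13-fold lower (adjusted p = 0.000119). The TGF-beta family ligand Gdf3 was 1.79-fold lower (adjusted p = 0.0131, and 0.0652 to 0.0971 with an array left out). Without 1 array the list held 3 calls (without E12.5 replicate 1 or d3ag6 replicate 2) or 4.

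Several transcriptional targets of FGF and ERK signalling were lower in d3ag6, with 4 of 17 called lower and none higher (23.5%, median -0.19). The ETS factor Etv4 had 5.83 and 5.58 against 9.01 and 9.11, 10.2-fold lower (adjusted p = 9.54e-05), although its other probe set differed by -0.27 only. Its relative Etv5 differed by 0.25, with an interval of -0.31 to 0.81. The pathway inhibitor Spred1 was 2.38-fold lower (adjusted p = 0.00118). Of its 7 other probe sets 6 passed the filter, and all of these lay in the same direction. The inhibitors Spry1 and Spry4 were called at 1.62-fold and 2.10-fold lower and passed in no fit with an array left out, which in each case held 2 calls of this list. The Erk phosphatase Dusp4 was not called (0.52, adjusted p = 0.226).

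Among 22 genes of WNT signalling 4 were called lower and 1 higher (22.7%, median -0.38). Notum, a secreted inhibitor and a target of the pathway, had 8.09 and 7.89 against 9.29 and 9.21 (2.39-fold lower, adjusted p = 0.00121) and kept its call without each array. Rspo3, a ligand that strengthens the signal, had 3.65 and 2.94 against 5.56 and 5.04, so that its d3ag6 values lay below 4.81, the median of all signals. Its call (adjusted p = 0.00822) was lost without E12.5 replicate 1 (0.0749) and d3ag6 replicate 2 (0.0677). Without 1 array the list held 1 call (without E12.5 replicate 1) or 2.

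Genes of posterior mesoderm gave 4 calls of 24, all lower (16.7%), and the list held 3 or 4 calls with any array left out. The posterior homeobox gene Evx1 had 4.02 and 4.30 against 6.53 and 6.81 (5.69-fold lower, adjusted p = 0.000773), and Cdx2, which patterns the posterior axis, had 4.24 and 5.09 against 6.53 and 7.06 (4.38-fold lower, adjusted p = 0.00438). Evx1 and Cdx2 were brighter in d3 PGCLCs, at means of 8.68 and 7.61. Of 21 tested Hox genes only Hoxa10 was called (4.76%, beside 9.03% of all genes). Its values lay below the median of all signals on all 4 arrays. Its call (difference -1.99, adjusted p = 0.0373) held only without d3ag6 replicate 1 (0.0357, otherwise 0.161 to 0.234), and its difference was 0 with values under that median raised to it.

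Genes of glycolysis and the hypoxia response were higher in d3ag6 as a list. Of 31 members tested, 15 were called higher and none lower (48.4%, beside 5.95% of all genes called higher), the median difference was 1.20, and for 27 members both d3ag6 arrays lay above both E12.5 arrays, as they did for 32.4% of all genes. Their summed linear signal was 85928 and 92640 on the d3ag6 arrays and 45522 and 45433 on the E12.5 arrays. Without d3ag6 replicate 1, d3ag6 replicate 2, E12.5 replicate 1 or E12.5 replicate 2, 11, 10, 9 and 10 members were called. In cells short of oxygen the transcription factor HIF binds the core letters ACGTG or GCGTG near such genes and raises them.

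The called genes span the pathway from glucose uptake to lactate export. Slc2a1 (Glut1), a glucose transporter, had 11.89 and 12.15 in d3ag6 and 9.58 and 9.53 in E12.5, 5.51-fold higher (95% interval of the difference 1.98 to 2.95, adjusted p = 0.000393), and its other 2 probe sets gave 2.28 and 2.50. The second transporter Slc2a3 had 12.73 and 12.81 against 11.41 and 11.33 (2.64-fold, adjusted p = 0.00123). The phosphofructokinase gene Pfkl had 11.12 on both d3ag6 arrays against 8.54 and 8.46 (6.16-fold, adjusted p = 0.00164). All d3ag6 values of these 3 genes exceeded all E12.5 values by more than a log2 unit, though other probe sets gave down to -0.13 for Slc2a3 and 0.20 for Pfkl. Triose phosphate isomerase, Tpi1, had 12.12 and 12.42 against 10.09 and 9.90 (4.84-fold, adjusted p = 0.000543). Lactate dehydrogenase A, Ldha, had 12.44 and 12.32 against 10.16 and 9.96 (5.00-fold, adjusted p = 0.00184). Slc16a3, which exports lactate, had 8.02 and 8.38 against 2.50 and 4.19. Its difference of 4.85 (adjusted p = 0.0042) rests on dim E12.5 values and was 3.39 with values under the median of all signals, 4.81, raised to it.

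Outside the enzymes, the angiogenic factor Vegfa had 6.66 and 6.15 against 3.94 and 3.72 (difference 2.57, adjusted p = 0.00141, and 1.59 with dim values raised in the same way). Ankrd37, a HIF target of unclear role, had 9.59 and 9.75 against 7.28 and 6.85 (6.08-fold, adjusted p = 0.00264). The 8 genes named with a test so far in the list kept their calls whichever array was left out. P4ha1, a collagen prolyl hydroxylase, had 10.82 and 10.91 against 9.15 and 9.37 (3.04-fold, adjusted p = 0.00746, and 0.0691 without E12.5 replicate 1 and 0.0583 without d3ag6 replicate 2). Hexokinase 2, Hk2, was 3.12-fold higher (adjusted p = 0.00513, and 0.0522 without E12.5 replicate 2), and Aldoa was 2.32-fold higher (adjusted p = 0.0055, and 0.0558 without E12.5 replicate 1). The last 4 calls, Aldoc, Ndrg1, Egln3 and Adm, passed in no fit with an array left out. Other steps were not called. Gapdh had 13.33 and 13.30 against 13.01 and 12.99 (difference 0.31, 95% interval 0.02 to 0.61, adjusted p = 0.194), and Pgam1 differed by 0.33 and Pkm by 0.49, all 3 with intervals inside 2-fold, though other probe sets of Gapdh gave -1.02 to 0.36. Hif1a, which encodes the oxygen-sensitive subunit of HIF and is controlled mainly as a protein, differed by -0.20 (-0.83 to 0.44), and its other probe sets gave -1.0 to 1.11. Car9, a carbonic anhydrase widely used as a HIF target, stood near the median of all signals in both groups and differed by -0.00 (-0.51 to 0.50).

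Among the other groups of the series, mean Slc2a1 was 11.60 in d3, 11.40 in female d6, 10.50 in male d6 and 11.56 in E9.5, so that E12.5, at 9.56, had the lowest mean and d3ag6, at 12.02, the highest of the 6. Ldha was not lowest in E12.5, with 11.43, 11.70, 9.32 and 12.74 in those 4 groups, 10.06 in E12.5 and 12.38 in d3ag6. Pfkl in male d6 PGCLCs, at 7.71, also lay below the 8.50 of E12.5.

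To show what the letters look like upstream of genes of this list, the 160 bases before the transcription start are given for 4 genes called higher, chosen because they hold the letters, from RefSeq, build GRCm38.p6, in the direction of the gene, with ACGTG and GCGTG on either strand in capitals. They lie at chr7:46845644-46845803 (Ldha, plus strand), chr4:119108585-119108744 (Slc2a1, plus strand), chr10:59323136-59323295 (P4ha1, plus strand) and chr8:45999851-46000010 (Ankrd37, minus strand), each directly upstream of the annotated start.
Ldha: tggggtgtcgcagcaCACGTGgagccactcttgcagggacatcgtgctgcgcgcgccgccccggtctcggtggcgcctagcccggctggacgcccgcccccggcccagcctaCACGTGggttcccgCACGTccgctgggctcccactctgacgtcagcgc
Slc2a1: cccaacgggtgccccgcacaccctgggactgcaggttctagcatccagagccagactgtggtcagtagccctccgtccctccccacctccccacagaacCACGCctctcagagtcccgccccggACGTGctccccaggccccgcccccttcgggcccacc
P4ha1: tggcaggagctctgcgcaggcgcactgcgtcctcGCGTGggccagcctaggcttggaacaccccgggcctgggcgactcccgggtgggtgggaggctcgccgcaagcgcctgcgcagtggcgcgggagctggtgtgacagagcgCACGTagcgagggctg
Ankrd37: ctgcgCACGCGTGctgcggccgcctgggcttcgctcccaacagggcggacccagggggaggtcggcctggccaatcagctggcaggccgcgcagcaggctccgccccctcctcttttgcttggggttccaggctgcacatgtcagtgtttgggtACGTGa

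Ldha carries 3 runs in capitals and the other 3 genes carry 2 each. The Ldha sequence belongs to the first of its 2 promoters in the table, and the second holds 1 run. In the same 160 bases the letters were not found in either promoter of Vegfa or in those of Tpi1 and Egln3, which were also called higher. In windows of 250 bases before to 50 after the start, ACGTG or GCGTG on either strand was found in 15 of 18 promoters (83.3%) of the list's called genes and in 19 of 23 (82.6%) of its genes not called. The share was 60.0% of 13821 promoters of all tested genes and 43.8% of all 32851 promoters in the table. Over all called genes it was 60.9% of 820 promoters of those higher and 64.6% of 429 of those lower. GCGTG alone, the core that the dioxin receptor also reads and part of the set above, was found in 48.2% of promoters of the higher, 54.8% of the lower and 48.4% of all tested genes. The E-box CACGTG, which contains ACGTG, was found in 11.5%, 9.56% and 9.59% of these, and the E2F letters TCCCGC in 32.9%, 36.4% and 33.4%. These shares describe letters only, were not tested, and show no site in use.

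The nuclear genes of oxidative phosphorylation, the mitochondrial route of energy use, showed no such shift. None of 32 was called by limma (0 had an unadjusted p under 0.05), the median was -0.03, and 31 intervals lay inside 2-fold. The 2 members with the smallest p, Uqcrc2 and Uqcrc1 of complex III, differed by -0.40 (adjusted p = 0.291) and -0.20 (adjusted p = 0.43). Genes of cholesterol and fatty acid synthesis held 2 calls of 27, both higher (7.41%, median 0.23), and neither Elovl6 nor Mvk kept its call without any 1 array (0 calls in each such fit).

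**Figure D3:**
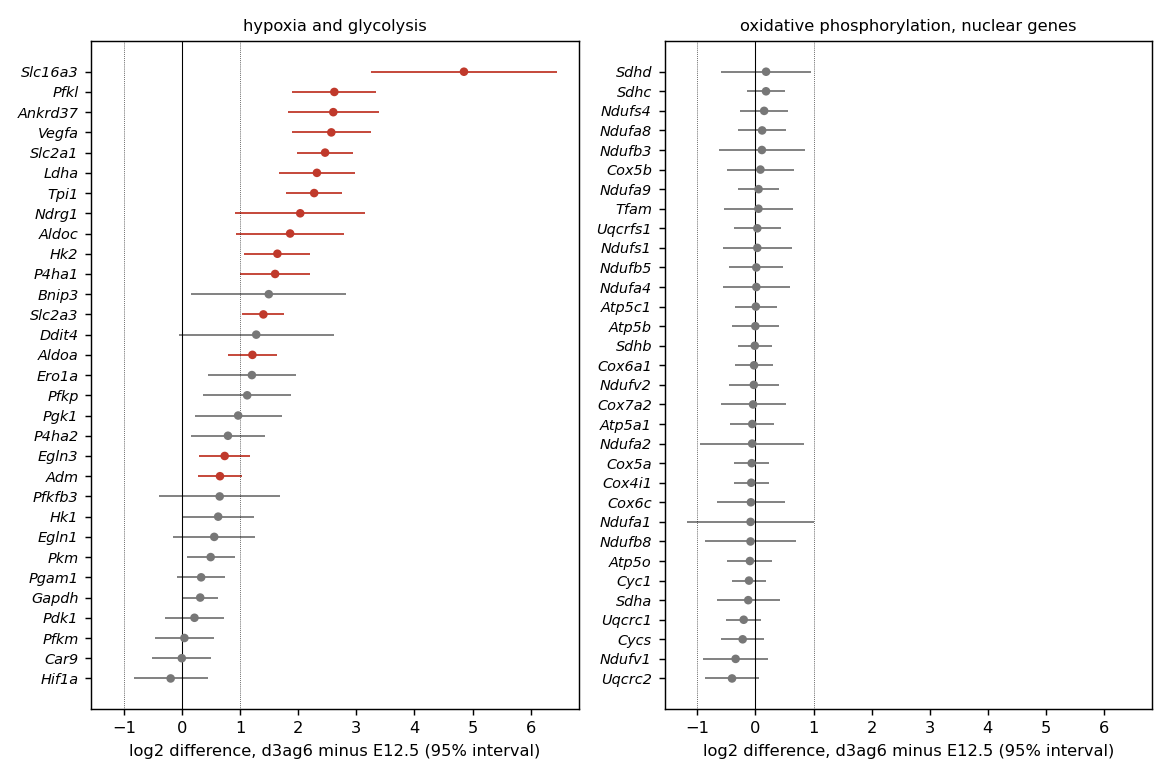
Difference of d3ag6 minus E12.5 with its 95% interval for the 31 tested genes of hypoxia and glycolysis (left) and the 32 nuclear genes of oxidative phosphorylation (right), with called genes in red and 2-fold bounds dotted. On the left 15 genes are called higher with a median over the list of 1.20, and on the right the median is -0.03 and 31 intervals stay inside the bounds.

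Stress and early response genes were partly higher. Of 26 immediate early and heat shock genes 6 were called higher and none lower (23.1%, median 0.32). Egr1, a growth factor-induced zinc finger gene, had 9.67 and 9.43 in d3ag6 and 6.65 and 6.75 in E12.5 (7.19-fold, adjusted p = 0.000387). Ier3, another early gene, had 9.09 and 9.33 against 6.31 and 6.84 (6.19-fold, adjusted p = 0.00104). Both calls held without each array, and the list held 3 calls without E12.5 replicate 2 or d3ag6 replicate 1 and 4 without either other array. Egr1 averaged 8.95 and 8.74 in d3 and female d6 PGCLCs and 7.52 in E9.5 PGCs. Of 24 p53 targets and apoptosis genes 4 were called higher and none lower (16.7%). The pro-apoptotic Pmaip1 (Noxa) had 9.01 and 8.89 against 5.92 and 5.96 (8.05-fold, adjusted p = 0.00831, but 0.0507 to 0.0618 with an array left out), and the list held 0 calls without E12.5 replicate 1, E12.5 replicate 2 or d3ag6 replicate 1 and 2 without d3ag6 replicate 2. Of 29 genes of the integrated stress response 4 were called higher (13.8%, median 0.46). The list held 4 calls without d3ag6 replicate 1, of which the called gene Aars (0.0589) was not one, and 1 without each other array. Nupr1, a stress-induced chromatin protein, had 6.55 and 7.87 against 2.28 and 0.00 (adjusted p = 0.00158). With dim values raised to 4.81 its difference of 6.07 became 2.40.

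Of 24 genes of interferon response and antigen presentation 5 were called higher and none lower (20.8%, median 0.29), among them the class I genes. H2-K1, a heavy chain of major histocompatibility class I, had 9.97 and 10.27 in d3ag6 and 7.68 and 7.62 in E12.5 (5.55-fold, adjusted p = 0.00162). H2-D1, another such chain, had 7.86 and 8.68 against 5.97 and 6.11 (4.70-fold, adjusted p = 0.00367). Their partner B2m had 8.36 and 9.47 against 6.20 and 6.38 (6.18-fold, adjusted p = 0.00831), with calls lost without E12.5 replicate 1 (0.0676), E12.5 replicate 2 (0.051) and d3ag6 replicate 2 (0.0613). As for every called gene, the groups did not overlap for these 3. H2-K1 averaged 10.30 in d3, 9.31 in female d6 and 9.08 in E9.5. Other probe sets gave differences from -0.30 to 3.04 for H2-D1 and from 0.12 to 2.17 for H2-K1. Class I genes vary between mouse strains, which cannot be told apart from the groups here. The list held 2 calls without E12.5 replicate 2 and 3 without each other array.

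Epithelial junction genes gave 5 calls higher and 1 lower of 17 (35.3%, median 0.36). The claudin Cldn7, a tight junction protein, had 10.81 and 10.67 against 9.02 and 9.12 (3.19-fold, adjusted p = 0.000628), and Cldn4, of the same family, had 7.06 and 7.28 against 3.92 and 4.50 (7.80-fold, adjusted p = 0.00278). The keratin gene Krt7 had 8.85 and 9.07 against 5.89 and 5.97 and was 8.19-fold higher (adjusted p = 9.54e-05). The gene called lower was another keratin, Krt18, at 7.85 and 8.30 against 9.11 and 9.07, which passed in no fit with an array left out (0.0837 to 0.228). Cldn7 averaged 11.42 in d3 and 11.35 in female d6 PGCLCs, so E12.5 had the lower level of these groups. Without 1 array the list held 3 to 5 calls, the fewest without E12.5 replicate 2 or d3ag6 replicate 2.

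Of 29 imprinted genes, expressed from 1 parental allele in the soma, 6 were called lower and 3 higher (31.0%, median 0.002). Phlda2, a maternally expressed growth regulator, had 9.18 and 9.33 in d3ag6 and 12.58 and 12.59 in E12.5, 10.1-fold lower (adjusted p = 0.000735). Slc22a18, its neighbour in the same imprinted cluster, had 6.21 and 6.31 against 8.65 and 8.54 (5.05-fold lower, adjusted p = 0.00022). Cdkn1c, a cell cycle inhibitor of that cluster, was called at 3.74-fold lower (adjusted p = 0.0259) and lost the call without any array (0.0576 to 0.15). Plagl1, a paternally expressed zinc finger gene, had 9.08 and 9.93 against 11.31 and 11.79 (4.14-fold lower, adjusted p = 0.0059, and 0.0552 without E12.5 replicate 2). In the other direction, Impact, a paternally expressed regulator of translation, had 10.43 and 10.20 against 8.54 and 8.53 (3.43-fold higher, adjusted p = 0.000485), and the amino acid transporter Slc38a4 was 2.04-fold higher (adjusted p = 0.00465), both calls kept without each array. Peg3 and Ndn differed by 0.00 each, with intervals of -0.33 to 0.33 and -0.42 to 0.42, though other probe sets of Peg3 gave -3.05 to -0.87. Without d3ag6 replicate 1, d3ag6 replicate 2, E12.5 replicate 1 or E12.5 replicate 2 the list held 5, 5, 6 and 4 calls. Levels alone do not show from which allele a gene was read.

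Among the DNA methylation machinery 2 of 17 were called, both higher (11.8%, median -0.09). The cofactor of de novo methylation Dnmt3l had 5.44 and 8.0 in d3ag6 and 3.70 and 4.10 in E12.5, so that its d3ag6 arrays stood further apart than d3ag6 replicate 1 stood from E12.5. The call (adjusted p = 0.0369) passed only without d3ag6 replicate 1 (0.00461, otherwise 0.117 to 0.199). The other call was the methyl-CpG-binding protein Mbd2 (difference 1.34, adjusted p = 0.0157, and 0.128 and 0.105 without E12.5 replicate 2 or d3ag6 replicate 2), whose other probe set differed by -0.22. The list held 0 calls without E12.5 replicate 2, 1 without E12.5 replicate 1 and 2 otherwise, and without d3ag6 replicate 2 those 2 were other genes. Of 33 histone methyltransferases and demethylases 3 were called (9.09%, beside 9.03% of all genes), and no call was left with any array left out.

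Genes of G2 and mitosis were close between the groups, and most genes of S phase stood slightly lower in d3ag6. None of 25 genes of G2 and mitosis was called by limma (4 had an unadjusted p under 0.05), with 21 intervals inside 2-fold, and the 2 with the smallest p were Aurkb (0.71, adjusted p = 0.114) and Cenpe (-0.42, adjusted p = 0.133). Of 27 genes of S phase 1 was called lower (3.70%, median -0.23, 22 intervals inside 2-fold), namely the replication protein Rpa2 at -0.59, which passed in no fit with an array left out. By limma 7 of the 27 had an unadjusted p under 0.05. For 17 both d3ag6 arrays lay below both E12.5 arrays, as for 29.8% of all genes, and for 3 above. Their summed linear signal was 74053 and 74567 in d3ag6 against 85289 and 87421 in E12.5. Among D cyclins and inhibitors the antiproliferative gene Btg2 was 3.48-fold higher (adjusted p = 0.00336), though its other probe set differed by 0.12 only. Ccnd1, which drives entry into the cycle, was called 2.93-fold lower, a call kept only without d3ag6 replicate 2. Of these 19 genes 3 were called (15.8%, beside 9.03% of all genes), and fewer with any array but d3ag6 replicate 2 left out.

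On the X chromosome 20 of 444 tested genes were called higher and 20 lower (9.01%, beside 9.03% of the genes on other chromosomes). Their median difference was -0.08 against 0.006 for the other genes. Within an array the X-linked median stood -0.04 from that of the other genes on both d3ag6 arrays and 0.007 and -0.06 from it on the E12.5 arrays, whereas it stood at 0.36 and 0.20 in d3 and -0.30 and -0.21 in female d6 PGCLCs. Xist, the RNA that silences an X chromosome, had 5.14 and 5.97 against 5.94 and 5.67, a difference of -0.25 (95% interval -0.89 to 0.39). Its groups overlap. Male d6 PGCLCs had 5.34 and 4.81 for Xist, the first of them above d3ag6 replicate 1. This probe set thus did not separate male from female arrays, and its small difference does not show that Xist was alike in both groups. None of 4 Y-linked genes tested was called by limma (1 had an unadjusted p under 0.05). Kdm5d, a Y-linked demethylase, had 3.39 and 2.44 in d3ag6 and 1.31 and 2.04 in E12.5, all below the median of all signals, against a mean of 7.88 in E9.5.

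Of 4 tested genes reported to differ between C57BL/6 and DBA/2 mice, the strains crossed to make BDF1, 1 was called (25.0%, beside 9.03% of all genes). Wdfy1 had 8.81 and 8.86 in d3ag6 and 6.58 and 6.6 in E12.5 (4.75-fold higher, adjusted p = 0.000163). It also averaged 8.72 in d3, 8.63 in female d6 and 8.51 in E9.5.

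**Figure D4:**
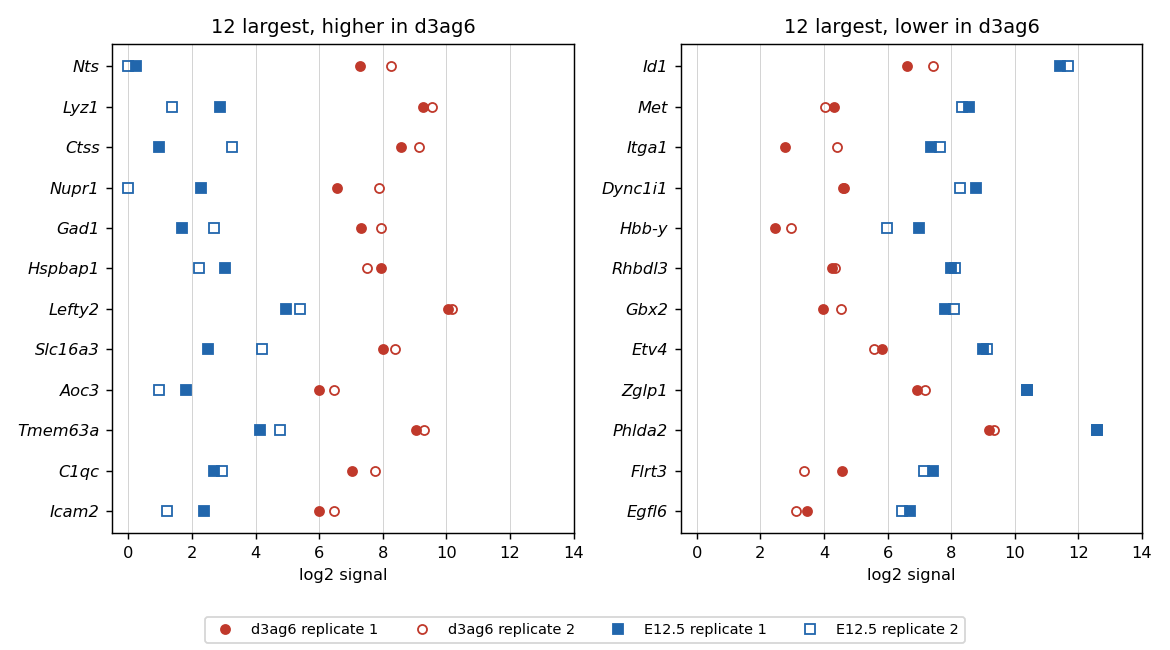
Log2 signal on each of the 4 arrays for the 12 genes with the largest called differences in each direction, with d3ag6 as red circles and E12.5 as blue squares. Genes were chosen among those for which both arrays of one group lie above both of the other. Of the genes shown, 11 of the 12 on the left and 8 of the 12 on the right have one group mean below the median of all signals.

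The largest differences involved genes that were dim in one group. Among the 800 genes called higher, 159 had an E12.5 mean below 4.81, the median of all signals, and 61 of the 413 called lower had a d3ag6 mean below it, so their fold changes depend on how dim values are treated. Nts, which encodes the peptide neurotensin, had 7.28 and 8.25 in d3ag6 and 0.23 and 0.00 in E12.5 (adjusted p = 0.000773). Its difference of 7.65 became 2.95 with dim values raised to 4.81. Gad1, the enzyme that makes the transmitter GABA, had 7.31 and 7.95 against 1.70 and 2.69 (difference 5.43, adjusted p = 0.00101, and 2.82 with dim values raised) and was dim in d3 and d6 PGCLCs too, at 3.40 and 2.63. Like Meiob, it exceeded 4.81 on the d3ag6 arrays only, so that no weight rests on its call. Tmem63a, an ion channel gene, had 9.06 and 9.29 against 4.15 and 4.76 (difference 4.72, adjusted p = 9.54e-05, and 4.36 with dim values raised). Brighter in both groups was the amino acid transporter Slc1a5, at 8.88 and 9.05 against 6.03 and 6.14 (7.35-fold, adjusted p = 9.54e-05). So was the complement inhibitor Cd59a, at 10.13 and 10.23 against 7.18 and 6.93 (8.72-fold, adjusted p = 9.54e-05), though its other probe set differed by 0.71 only. All of these calls held without each array.

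Of the largest falls, Met, the receptor of hepatocyte growth factor, had 4.31 and 4.02 in d3ag6 and 8.55 and 8.35 in E12.5 (difference -4.29, adjusted p = 0.000242, and -3.64 with dim values raised). Dync1i1, a dynein intermediate chain, had 4.64 and 4.59 against 8.78 and 8.28 (difference -3.92, adjusted p = 9.54e-05). The integrin subunit Itga1 had 2.77 and 4.41 against 7.37 and 7.66 (difference -3.92, adjusted p = 0.00121, and -2.70 with dim values raised). Rhbdl3, a rhomboid family protein, had 4.24 and 4.36 against 7.98 and 8.11 (difference -3.74, adjusted p = 0.000387). Met, Dync1i1 and Rhbdl3 were similarly dim in female d6 PGCLCs, at 4.37, 4.15 and 4.26, and brighter in E9.5 PGCs, at 7.33, 6.83 and 6.56. Of the 12 largest falls, those of Hbb-y and Flrt3 were the 2 that did not hold without each array. Hbb-y, an embryonic globin, had adjusted p of 0.0147 and of 0.0508 to 0.119 with an array left out. Flrt3, an adhesion protein, had 0.0177 and passed only without d3ag6 replicate 1 (0.0361, otherwise 0.0838 to 0.132).

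Markers of macrophages were among the largest differences. Of 22 markers on the arrays 16 passed the filter, 7 of them only through the d3ag6 arrays, and 4 of those 7 (Lyz1, Lyz2, C1qc and Ctss) are among the 6 called higher. These had to differ in that direction, so that no weight rests on the count, on their p-values or on calls kept with an array left out. The summed linear signal of all 22, these 4 included, was 3439 and 4195 in d3ag6 and 1093 and 1071 in E12.5. It was 897 to 1676 on the other 8 arrays. Lyz1, a lysozyme, had 9.26 and 9.56 against 2.88 and 1.36 (difference 7.29, adjusted p = 0.00254, and 4.6 with dim values raised). Lyz2, the lysozyme of myeloid cells, had 7.91 and 8.45 against 4.55 and 4.36 (13.2-fold, adjusted p = 0.00039). The complement gene C1qc had 7.02 and 7.75 against 2.69 and 2.95 (difference 4.57, adjusted p = 0.00151, and 2.58 with dim values raised). Cd68, a lysosomal protein (5.05-fold, adjusted p = 0.00304 by limma), was not among the 7 that passed only through d3ag6. It kept its call without each array, as did these 3. Cd68 averaged 7.18 in d3ag6 and 4.84 in E12.5. It averaged 6.36 in d3, 6.69 in female d6 and 6.45 in male d6 PGCLCs, and 5.30 in E9.5 PGCs, so that E12.5 had its lowest mean. Tyrobp, a signalling adaptor of myeloid cells, had 9.13 and 9.33 against 7.93 and 8.0 (2.41-fold, adjusted p = 0.0102), a call that held only without d3ag6 replicate 1 (0.0424, otherwise 0.0657 to 0.0825). Cd68 and Tyrobp exceeded 4.81 on all 12 arrays. Ctss, a protease of antigen presentation, had 8.56 and 9.13 against 0.96 and 3.25 (difference 6.74, adjusted p = 0.0176), a call kept only without E12.5 replicate 2 (0.0472, otherwise 0.0718 to 0.136). The colony-stimulating factor receptor Csf1r had 7.88 and 8.0 against 7.04 and 7.05 and was not called (adjusted p = 0.0706), nor was the lineage factor Spi1 (0.24, adjusted p = 0.536) or the surface marker Adgre1 (0.89, adjusted p = 0.291). Ptprc (CD45), which did not pass the filter, had 5.35 and 3.72 against 3.07 and 1.27, and Itgam had 4.32 and 3.83 against 3.91 and 2.78. In RNA of pooled cells, more cells of a type and more RNA per cell cannot be told apart, and the part of such cells in the other differences was not tested. Without 1 array, 4 or 5 markers were called.

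Markers of other gonadal cells gave fewer calls. Of 15 endothelial markers 3 were called higher (median 0.67), and the summed signal was 1864 and 2247 in d3ag6 against 1107 and 1203 in E12.5. Egfl7 (3.35-fold, adjusted p = 0.00152) and Emcn (3.06-fold, adjusted p = 0.00476) held without each array, but their means in d3 PGCLCs, 9.42 and 8.09, were close to those in d3ag6. Cdh5, a defining gene of the endothelium, was not called, at 0.44. Pecam1, which is also counted in the list of PGC specification, was not called either, at -0.91. Of 20 mesenchyme markers 2 were called higher (median 0.51), with sums of 6087 and 6290 against 5989 and 5357. The collagen gene Col3a1 had 8.22 and 9.30 against 5.10 and 4.81 (14-fold, adjusted p = 0.00159), and averaged 7.17 in female d6 PGCLCs and 9.70 in E9.5 PGCs. Of 17 markers of pre-granulosa cells and coelomic epithelium, the support cells of the ovary, 1 was called higher and 1 lower (11.8%), and sums were 2564 and 2663 against 2032 and 1780. Amhr2, the receptor of anti-Mullerian hormone, was the gene called higher (3.45-fold, adjusted p = 0.00917, and 0.0784 without E12.5 replicate 2 and 0.0694 without d3ag6 replicate 2). Foxl2, the defining factor of granulosa cells, differed by 0.41 and was not called, and Kitl, the ligand of Kit, had 7.24 and 7.72 against 6.00 and 5.66 (adjusted p = 0.0517). Without E12.5 replicate 1, E12.5 replicate 2, d3ag6 replicate 1 or d3ag6 replicate 2, the mesenchyme list held 1, 1, 4 and 1 calls and the pre-granulosa list 1, 0, 1 and 0. The part of these cells in the other differences was not tested.

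Markers of blood and gut endoderm separated single arrays or moved the other way. Of 8 erythroid markers 2 were called lower, the embryonic globins Hba-x (-2.27, adjusted p = 0.00883, and 0.0718 without E12.5 replicate 1 and 0.0618 without d3ag6 replicate 1) and Hbb-y. These 2 calls were 25.0% of the list, beside 9.03% of all genes. The summed signal of the 8 markers was 4668 and 3066 against 2778 and 2356. Of 13 endoderm markers 2 were called lower and none higher (15.4%). The plasma protein genes Ttr and Apoa1 had 10.10 and 8.33 on d3ag6 replicate 2 but 6.86 and 4.70 on replicate 1, which lay near the E12.5 values of 6.87 and 6.75 for Ttr and 4.45 and 4.48 for Apoa1. Rbp4, the retinol carrier of plasma, had 8.42 on replicate 2 and 6.81 on replicate 1. Alb, the main plasma protein, was not tested because 1 array alone exceeded the filter, and had 3.21 and 11.12 in d3ag6 against 4.15 and 4.04. The summed signal of the 13 markers was 1058 and 2670 on the d3ag6 arrays and 1643 and 1577 on the E12.5 arrays, and of all 16 on the arrays, Alb included, 1090 and 4922 against 1684 and 1616, so d3ag6 replicate 2 stood apart from the other 3. Without d3ag6 replicate 1 the list held 4 calls, and without either E12.5 array 1. None of the 6 Sertoli and 4 steroidogenic cell markers tested was called by limma (0 and 0 had an unadjusted p under 0.05).

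**Figure D5:**
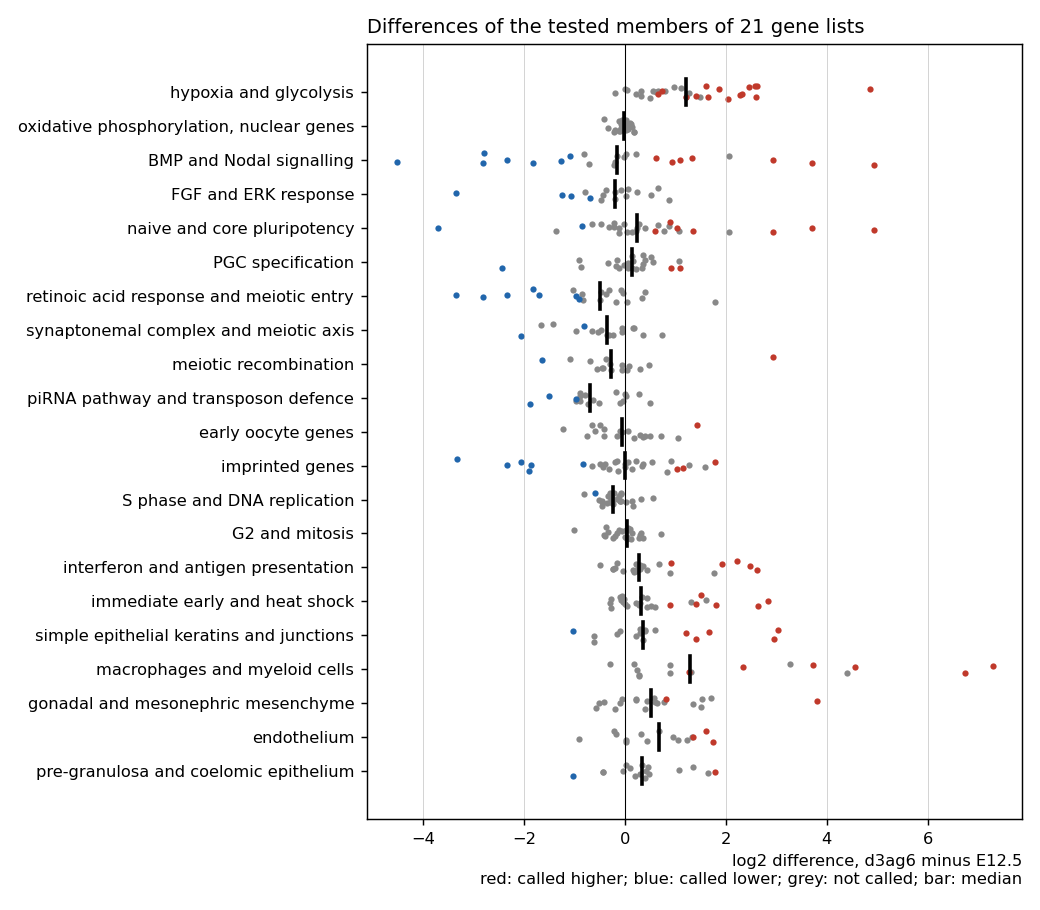
Differences of d3ag6 minus E12.5 for the tested members of 21 gene lists, with genes called higher in red, called lower in blue and not called in grey, and the median of each list as a bar. The hypoxia and glycolysis list has a median of 1.20, the macrophage markers, of which 7 passed the filter only through d3ag6, lie to the right as well, and the piRNA pathway (-0.69) lies furthest to the left.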

How the data were processed

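Per the labels' protocols, RNA of sorted cells was amplified by PCR as cDNA with 12 initial cycles, labelled and hybridised to 12 Affymetrix arrays. The authors deposited 1 log2 value per probe set and array (read as log2 from the range), and their summarisation and normalization are not given in the sources used here. Array medians ranged from 4.73 to 4.87, and 2.07% to 2.30% of values stood at 0. As medians differed by more than 0.1, values were quantile normalized with limma 3.58.1 (R 4.3.3). Of 45101 probe sets, 34958 had 1 gene in the platform annotation, 932 had several and 9211 had none. Each gene was represented by its probe set with the highest mean, and was tested where at least 2 of 12 arrays exceeded 4.81, the median of all values.

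limma was fitted with 1 mean per group over all 12 arrays (6 residual degrees of freedom, eBayes, two-sided), with Benjamini-Hochberg adjustment over 13436 genes. On simulated data for this comparison over 13436 genes it recovered 37% of 2-fold and 91% of 4-fold changes, with 5.2% of calls false. The number of arrays limits the precision. The comparison, lists, motifs and naming rule were chosen with earlier results of these data known. The rule took the 12 largest called differences in each direction with groups apart, up to 4 members of each list by adjusted p, 11 core genes and the 6 smallest adjusted p. A part of these is printed, and further genes were named after their values were seen. The letters ACGTG or GCGTG were added after the data were seen. A group left with 1 array was assumed to vary like the others. Other settings are given in the closing section. Tables were made with Python 3.11.15, pandas 2.3.3 and numpy 2.4.6, and figures with matplotlib 3.10.9.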

Additional observations from a re-analysis of the deposited data

How the results depend on the processing

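The number of calls, 1213 (800 higher, 413 lower), was 1220 with values as deposited, 1079 with a filter at the 75th percentile, 1260 with the filter on the 4 arrays compared, 1525 over every probe set, 1287 with a trend and robust eBayes, 1653 (628 lower) with only these 4 arrays fitted, 1555 with the 8 arrays of 1 code and 1362 with dim values raised. It fell to 775 (237 lower) with no filter, to 796 (519 higher) with the mean of all probe sets, and to 778 (244 lower) where a call also needed a 2-fold change. Leaving out 1 array left 363 to 573 calls, 275 to 440 higher and 87 to 135 lower. Of the 1213 calls, 1115 were made on values as deposited, 734 with no filter, 687 with the mean of all probe sets and 1039 with the 4 arrays alone. The count of intervals inside 2-fold, 8132, was 14404 over every probe set, where more features are tested. The X-linked median of -0.08 was -0.02 on values as deposited and -0.13 with the filter at the 75th percentile, and the cause was not tested. Setdb1, called lower at -0.74, was 0.12 with the mean of all its probe sets.

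With the replicate number as a block (replicate block), 1294 genes were called. For d3ag6 and E12.5 the labels tie the number to nothing else, and deviations of same-numbered arrays correlated at 0.206 between these 2 groups. Over all pairs of groups they correlated at -0.252 to 0.547, highest for E9.5 and male d6, whose same-numbered arrays also share an array code. With 2 arrays in a group and no deposited background calls, small differences and dim genes are the least certain.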

Other observations

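Several genes outside the lists, chosen after their values were seen, also differed between the groups, with calls kept in limma without each array. The gap junction gene Gja1 had 6.50 and 7.43 in d3ag6 and 3.52 and 2.23 in E12.5 (adjusted p = 0.00438, difference 4.09, and 2.15 with dim values raised to 4.81). The fatty acid-binding protein Fabp3 had 10.06 and 10.30 against 6.49 and 6.58 (12.5-fold higher, adjusted p = 0.000508), although its second probe set differed by -0.03. The adaptor protein Grb7 had 8.24 and 8.36 against 4.79 and 4.43 (12.9-fold higher, adjusted p = 0.000387). In the other direction, the thyroid hormone-binding protein Crym had 5.21 and 5.51 in d3ag6 and 8.70 and 8.52 in E12.5 (9.51-fold lower, adjusted p = 0.000735) and averaged 5.08 in d3 and 4.86 in female d6 PGCLCs. The membrane protein Prom1 had 5.81 and 6.07 against 8.83 and 8.84 (7.41-fold lower, adjusted p = 0.00119). Fgf13, an intracellular FGF homologue, had 4.96 and 5.29 against 8.13 and 8.24 (8.35-fold lower, adjusted p = 0.000387). As for every called gene, the groups did not overlap for these 6 genes.

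Of 17 tested genes of the LIF and STAT3 response 4 were called higher and 1 lower (29.4%, median 0.33), and without d3ag6 replicate 1, d3ag6 replicate 2, E12.5 replicate 1 or E12.5 replicate 2 the list held 2, 3, 1 and 2 calls. The feedback inhibitor Socs3 had 6.31 and 5.10 in d3ag6 against 3.14 and 3.48 in E12.5, and averaged 9.61 in d3 and 9.17 in female d6 PGCLCs. Its call (adjusted p = 0.0133) held only without d3ag6 replicate 2 (0.0171, otherwise 0.0631 to 0.103). Among the X-linked Rhox homeobox genes, expressed in reproductive tissues, none of 4 was called. Rhox5 had 12.81 and 12.80 against 12.99 and 13.02, with an interval inside 2-fold (-0.68 to 0.29).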
